A study of Homo sapiens with 6 samples.

Results

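The mitochondrial ribosomal protein genes of K562 cells were followed through RNA interference against HNRNPU, an abundant RNA-binding protein of the nucleus (scaffold attachment factor A). Members were the loci whose gene name starts with MRPL or MRPS followed by a number, with an optional letter A, B or C. The rule found 76 of 62828 loci, 47 named for the large subunit (MRPL) and 29 for the small subunit (MRPS). K562 is an established human chronic myelogenous leukemia line from bone marrow. The 6 groups were HNRNPU knockdown whole-cell RNA, control whole-cell RNA, HNRNPU knockdown nuclear RNA, control nuclear RNA, HNRNPU knockdown cytosolic RNA and control cytosolic RNA. The knockdown groups had received 300 nM of siRNA against HNRNPU and the control groups control oligos. Each group had 1 library, so no difference below has a replicate check, and no p-value can be given. The time from transfection to harvest was not given in the sources used here, nor was it stated whether the 3 preparations of a condition share a culture.

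Mitochondria carry their own ribosome, the mitoribosome, which translates the few mRNAs of the mitochondrial genome into core subunits of the respiratory chain. Its RNAs are made inside the organelle, but all of its proteins are encoded by nuclear genes, translated in the cytosol and imported. Some of these proteins descend from bacterial ribosomal proteins and the others were added during the evolution of mitochondria. Expression is given as deposited in FPKM, fragments per kilobase of transcript scaled to library size, so levels can be set side by side between genes within a library. Ratios are differences of log2(FPKM + 0.1).

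All 76 members were expressed, and the lowest of them averaged 6.87 FPKM over the 6 libraries. The median member had 25.03 FPKM in knockdown and 22.2 FPKM in control whole-cell RNA, 23.4 FPKM in knockdown and 23.9 FPKM in control nuclear RNA, and 67.7 FPKM in knockdown and 62.1 FPKM in control cytosolic RNA. The other protein-coding loci that averaged at least 1 FPKM, 10213 in number, had a median of 9.30 FPKM in knockdown and 8.83 FPKM in control whole-cell RNA. Together the members made up between 0.754% and 0.849% of the FPKM of protein-coding loci in each library. The members lay close together. In control whole-cell RNA the upper quartile stood 2.03 times above the lower quartile, against 4.13 times for the other protein-coding loci. The cytosolic ribosomal protein genes were expressed far more highly, with a median of 691 FPKM in knockdown and 675 FPKM in control whole-cell RNA over 84 loci.

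**Figure D1:**
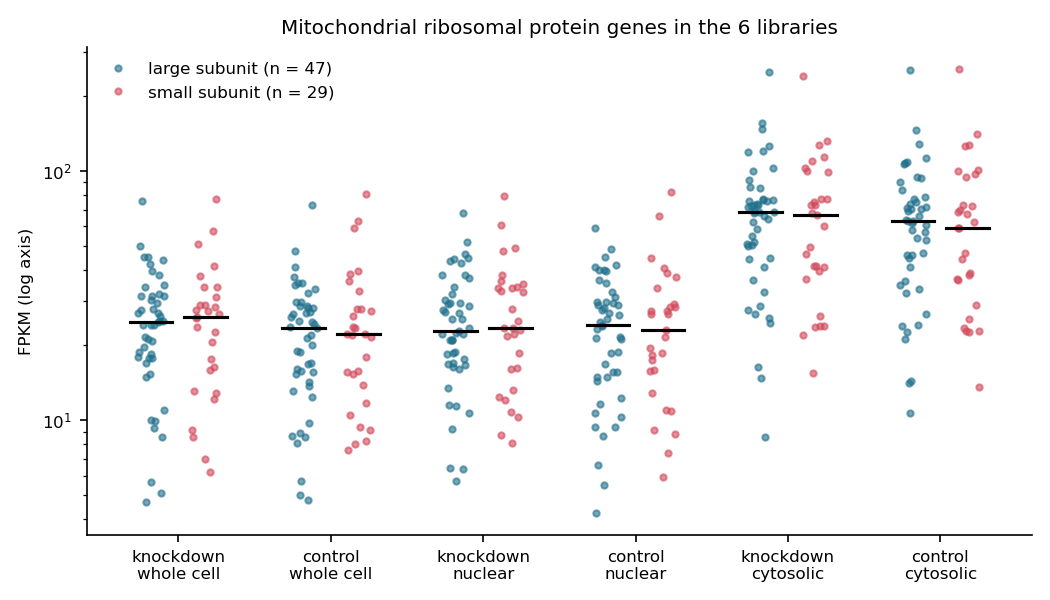
FPKM of the 76 mitochondrial ribosomal protein loci in each of the 6 libraries, on a log axis. Each point is a locus, black lines are medians, and the large (n = 47) and small (n = 29) subunit genes are drawn side by side; both cytosolic libraries lie above the whole-cell and nuclear ones.

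The highest mean level, 136 FPKM, was that of the MRPS16 locus, which also carries DNAJC9, a gene for a histone-binding J-domain protein, so its level is that of both genes. MRPL37, a large subunit protein with no bacterial counterpart, followed with a mean of 130 FPKM. It had 75.5 FPKM in knockdown and 73.2 FPKM in control whole-cell RNA, 67.7 FPKM in knockdown and 59.3 FPKM in control nuclear RNA, and 251 FPKM in knockdown and 255 FPKM in control cytosolic RNA. MRPS27 and MRPS2, both of the small subunit, averaged 78.8 and 77.7 FPKM. At the other end stood MRPL17, MRPL1, MRPL50 and MRPS31, with means of 6.87, 8.63, 8.64 and 10.7 FPKM. The MRPL1 protein forms the stalk that handles spent tRNA, and MRPL17 lies near the exit of the peptide tunnel in the bacterial ribosome. Large and small subunit genes were expressed at like levels. The large subunit median was 24.9 FPKM in knockdown and 23.4 FPKM in control whole-cell RNA, and the small subunit median 26.0 FPKM in knockdown and 22.1 FPKM in control whole-cell RNA.

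Several members share their locus with another gene or overlap one. In 12 members the locus was merged with another protein-coding gene, as for MRPS28 with TPD52, MRPL53 with CCDC142, MRPL12 with SLC25A10 and MRPL46 with DET1. A further limit is that 29 members overlap another locus that averaged at least 1 FPKM, and the use of strand in counting was not given in the sources used here. Among the 62828 loci were 66 pseudogene loci named after members, of which 5 averaged at least 1 FPKM. They are named after MRPL35, MRPL42, MRPL45 and MRPS31, some are merged with other genes, and reads of these members may have been split with them.

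The members lie scattered over 21 chromosomes, with no more than 8 on any of them (chromosomes 1 and 2). Some promoter motifs were more frequent among them than among all protein-coding genes. RefSeq promoter windows (GRCh38.p14, from 250 bases before to 50 bases after the gene's start) were at hand for 67 of the 76 members and for 15843 protein-coding genes. The ETS-family motif CCGGAAG, read on both strands, occurred in 41.8% of the members' windows and in 14.2% of all protein-coding windows. The YY1 motif AAGATGGCG occurred in 19.4% of the members' windows and 2.74% of all. The NRF1 motif GCATGCGC occurred in 8.96% of the members' windows and 4.26% of all, and the SP-family motif GGGCGG in 61.2% and 58.5%. TATAAA was found in 2.99% of the members' windows and 9.63% of all. ETS-family factor GABP, NRF1 and YY1 are known regulators of nuclear genes for mitochondrial proteins. A match is only a run of letters, and whether any factor binds there was not tested. The comparison set holds all protein-coding genes, whether expressed in these cells or not. Whether the members differ in these shares from expressed genes, or from other genes for mitochondrial proteins, was not tested. The large and small subunit genes carried the ETS motif in like shares, 40% and 44.4%. Of the members, 25.4% (17 of 67) have a protein-coding gene that starts on the other strand within 1000 bases upstream. The share was 10.3% over all protein-coding genes. MRPL46 and MRPS11 are such a pair, one from each subunit, with starts 320 bases apart.

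Promoter windows of 3 members show the range, with the letters of ETS, YY1 and NRF1 motifs on either strand in capitals. MRPL52 holds all of them, MRPL40 holds the ETS motif, and MRPS27 holds none of these runs of letters in its window.
MRPL52 (GRCh38.p14 chr14:22829637-22829936, plus strand): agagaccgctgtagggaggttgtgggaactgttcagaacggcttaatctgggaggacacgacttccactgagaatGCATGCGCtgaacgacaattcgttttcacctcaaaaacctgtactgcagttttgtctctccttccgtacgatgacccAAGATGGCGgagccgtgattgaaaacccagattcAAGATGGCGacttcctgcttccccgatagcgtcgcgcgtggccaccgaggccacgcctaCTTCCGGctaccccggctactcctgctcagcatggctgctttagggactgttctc
MRPL40 (GRCh38.p14 chr22:19432295-19432594, plus strand): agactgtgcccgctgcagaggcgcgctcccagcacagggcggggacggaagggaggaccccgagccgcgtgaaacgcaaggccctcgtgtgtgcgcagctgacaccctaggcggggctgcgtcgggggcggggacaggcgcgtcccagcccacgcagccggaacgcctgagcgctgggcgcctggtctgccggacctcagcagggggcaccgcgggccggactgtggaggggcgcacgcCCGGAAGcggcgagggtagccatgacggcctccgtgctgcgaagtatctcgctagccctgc
MRPS27 (GRCh38.p14 chr5:72320191-72320490, minus strand): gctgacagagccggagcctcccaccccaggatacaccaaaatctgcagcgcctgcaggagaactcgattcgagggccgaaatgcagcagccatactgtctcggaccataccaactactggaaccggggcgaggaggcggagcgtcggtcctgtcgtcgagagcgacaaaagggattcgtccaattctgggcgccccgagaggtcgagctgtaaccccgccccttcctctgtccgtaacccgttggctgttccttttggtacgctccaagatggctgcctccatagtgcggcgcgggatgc

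In both conditions every member had fewer FPKM in nuclear than in cytosolic RNA. The members' median nuclear to cytosolic log2 ratio was -1.33 in knockdown cells (quartiles -1.62 and -1.13) and -1.36 in control cells (quartiles -1.70 and -1.12). The ratio was below 0 for 76 of 76 members in both conditions, while 66.8% of all 12838 loci that averaged at least 1 FPKM were below 0 in knockdown cells and 64.9% in control cells. These signs depend on how the fractions are scaled to each other, since the deposited FPKM add up to much more in the cytosolic libraries. As deposited, the members' median lay 0.73 below that of protein-coding loci in knockdown cells and 0.75 below in control cells. With all libraries set to equal totals, the members' own medians became -0.14 in knockdown and -0.12 in control cells. The distances were then 0.72 in knockdown and 0.74 in control cells. Multiplying a library by 1 factor can hardly change them, so this is no check of the distance. Quantile normalization can change them, and gave smaller distances of 0.45 in knockdown and 0.42 in control cells. As deposited, 5 of 76 members in knockdown cells and 3 of 76 in control cells had a ratio above the protein-coding median, and with quantile normalization 9 of 76 in knockdown and 11 of 76 in control cells.

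**Figure D2:**
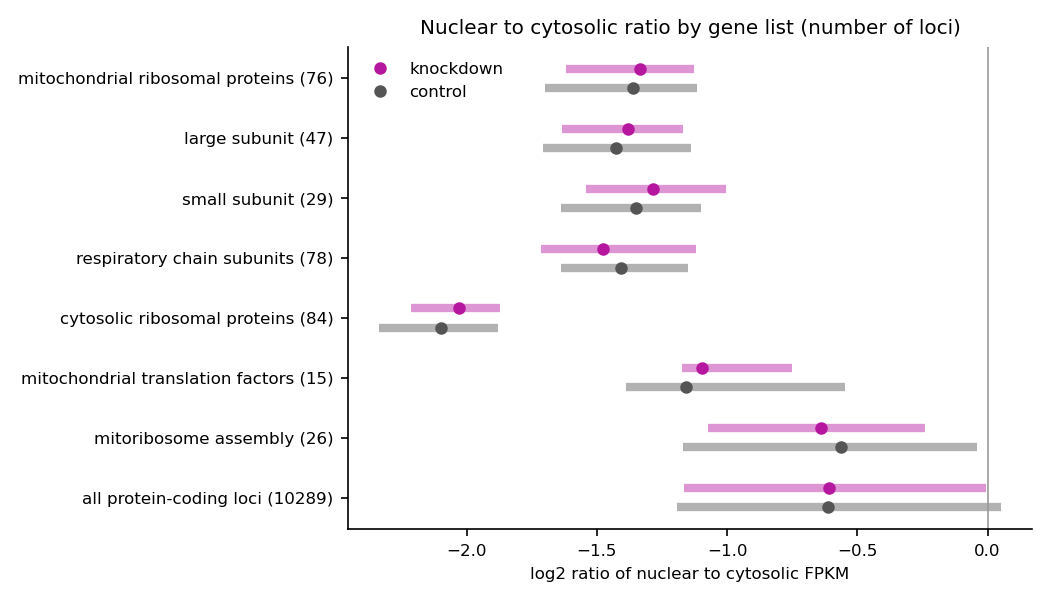
Log2 ratio of nuclear to cytosolic FPKM by gene list, in knockdown and control cells. Points are medians over loci and bars the interquartile range; the mitochondrial ribosomal proteins lie near the respiratory chain subunits, between the cytosolic ribosomal proteins and the bulk of protein-coding loci.

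The ratio of the members was like that of the nuclear-encoded subunits of the respiratory chain, whose medians over 78 loci were -1.48 in knockdown and -1.41 in control cells. Cytosolic ribosomal proteins lay lower, at -2.03 in knockdown and -2.10 in control cells. By the mean of both conditions, the members with the lowest ratios were MRPS15, MRPL36, MRPL37 and MRPL11. MRPS15, the homolog of bacterial S15 that binds the small subunit rRNA early in assembly, had 24.996 FPKM in the nuclear and 114 FPKM in the cytosolic library of knockdown cells, and 19.5 FPKM in the nuclear and 101 FPKM in the cytosolic library of control cells. Its ratio was -2.19 in knockdown and -2.37 in control cells. The highest ratios by the same mean were those of MRPS5, MRPS31, MRPL46 and MRPL38, between -0.51 and -0.59 in knockdown and between -0.43 and -0.65 in control cells. Of these, MRPS5, MRPL46 and MRPL38 are merged with other genes (ZNF514, DET1 and FBF1). MRPS31 had 10.8 FPKM in the nuclear and 15.4 FPKM in the cytosolic library of knockdown cells, and 9.14 FPKM in the nuclear and 13.7 FPKM in the cytosolic library of control cells. The order of the members was much the same in both conditions, which share no library: Pearson's r between their ratios was 0.84 across the 76 genes (Spearman's rho 0.83). Across 6852 other protein-coding loci with a single name and at least 5 FPKM it was higher, with r of 0.94 (rho 0.94).

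After HNRNPU knockdown the members stayed near their control levels, most of them a little above. The median ratio of knockdown to control (log2) was 0.14 in whole-cell RNA (quartiles 0.00 and 0.25), 0.12 in nuclear RNA (quartiles -0.05 and 0.29) and 0.08 in cytosolic RNA (quartiles 0.01 and 0.18). Over protein-coding loci the medians were 0.07, 0.04 and 0.04. In whole-cell RNA 57 of 76 members were above 0, where 60.7% of all loci were. In nuclear RNA 51 members were above 0, against 54.0% of all loci, and in cytosolic RNA 59 members, against 54.3% of all loci. With each library scaled to the median of protein-coding loci, 48, 47 and 50 members were above 0. As deposited, 48 members in whole-cell RNA, 48 in nuclear RNA and 47 in cytosolic RNA exceeded the protein-coding median. Multiplying a library by a constant factor can hardly change these counts. Scaling to the median or to equal totals is therefore no check of them. Quantile normalization can change them, and gave 47 of the 76 members in whole-cell RNA, 46 in nuclear RNA and 48 in cytosolic RNA.

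**Figure D3:**
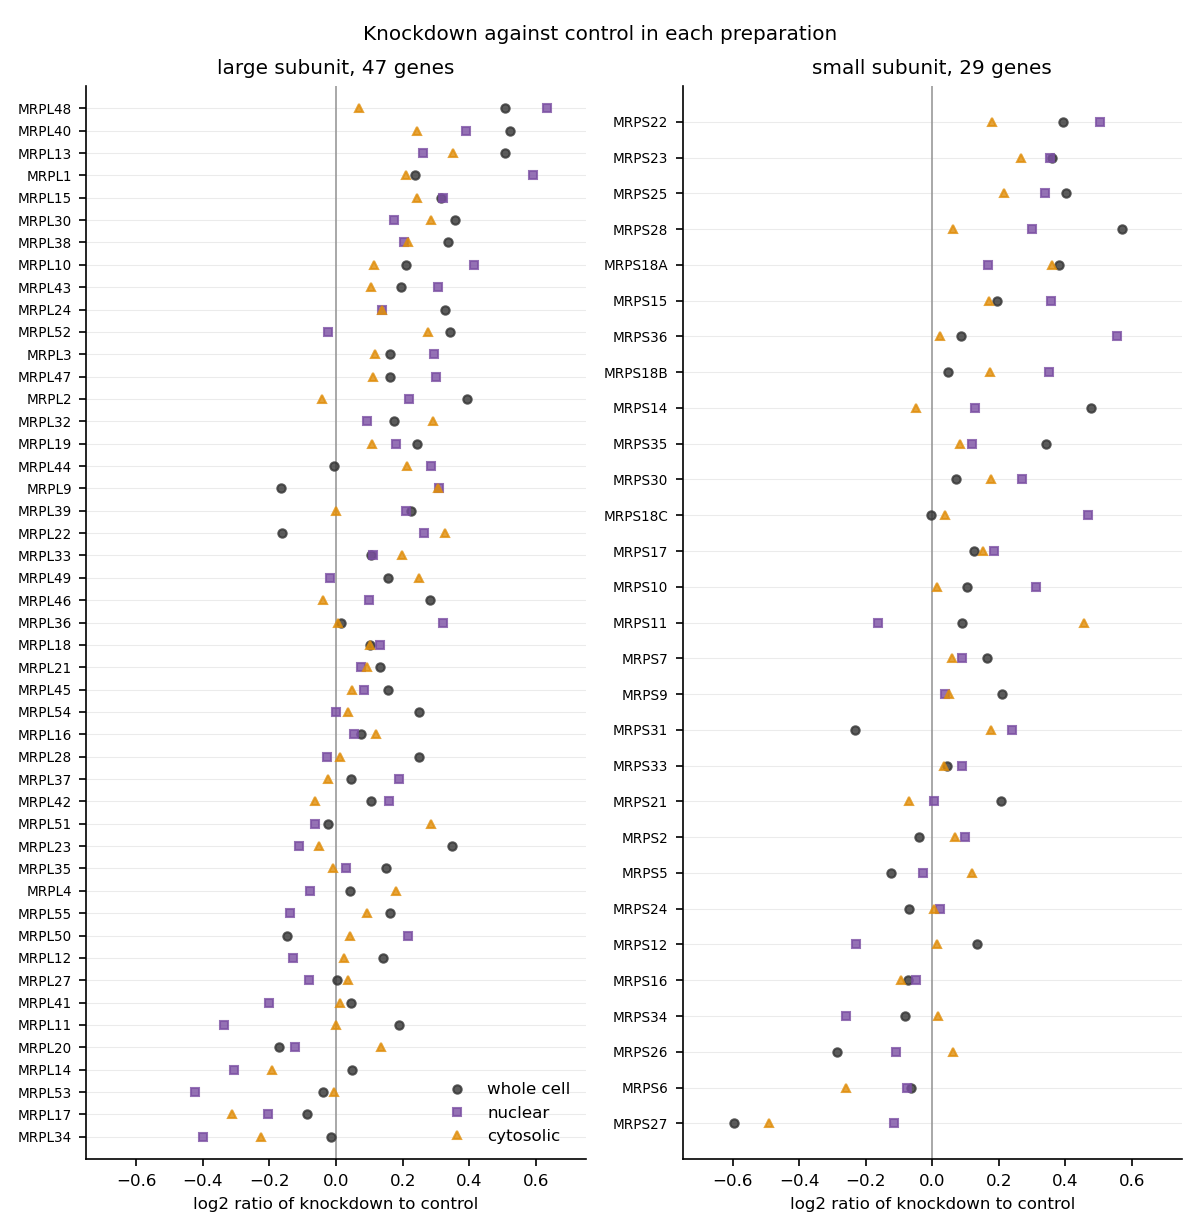
Log2 ratio of knockdown to control FPKM for each of the 47 large and 29 small subunit genes in whole-cell, nuclear and cytosolic RNA, ordered by the mean of the 3 preparations. Most points lie between -0.4 and 0.6; MRPS27 stands at the bottom and MRPL48 at the top of its panel.

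Differences of 1.5-fold or more were rare. In whole-cell RNA no member was that much higher, against 4.76% of all loci, and 1 member, MRPS27, was that much lower, against 3.86%. In nuclear RNA 2 members, MRPL48 and MRPL1, were at least 1.5-fold higher (3.86% of all loci) and none was that much lower (4.74% of all loci). In cytosolic RNA no member passed in either direction, against 6.41% of all loci higher and 5.9% lower. All loci include noncoding ones, and the shares over protein-coding loci were lower. Of these, 3.29% were higher and 2.25% lower in whole-cell RNA. In nuclear RNA 2.24% were higher and 2.91% lower, and in cytosolic RNA 3.27% higher and 3.04% lower. No member reached 2-fold in any preparation, and none passed 1.5-fold in more than 1 preparation. Just inside the threshold were MRPL1 with a nuclear log2 ratio of 0.59 and MRPS27 with a whole-cell log2 ratio of -0.60, which no longer passed with a pseudocount of 1, and just outside were MRPS28 with 0.57 in whole-cell RNA and MRPS36 with 0.56 in nuclear RNA.

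The precision of a single value can be judged from the number of fragments behind it, which was estimated from the steps between low FPKM values and the transcript lengths. In whole-cell RNA 26 members had a ratio outside the 95% range of counting error alone, 24 of them above 0 and 2 below. In nuclear RNA 39 members did, 30 above and 9 below, and in cytosolic RNA 26 members, 20 above and 6 below. Of the other protein-coding loci with a single name and at least 5 FPKM, 30.8% were outside and above 0 and 10.4% outside and below 0 in whole-cell RNA. The shares were 32% above and 18.3% below 0 in nuclear RNA, and 26.0% above and 16% below 0 in cytosolic RNA. Being outside counting error was thus common among other genes too. Counting error leaves out any difference between cultures, transfections and library preparations. A total of 35 members were above 0 in all 3 preparations, 20 of the large and 15 of the small subunit, where 24.6% of all loci were. In 8 of these, each of the 3 ratios was outside the 95% range, as in 7.59% of the other protein-coding loci just named. The 8 were MRPL13, MRPL15, MRPL30, MRPL38, MRPL40, MRPS15, MRPS23 and MRPS25. The MRPL30 locus is merged with C2orf15 and LIPT1 and the MRPL38 locus with FBF1, while those other loci carry a single name. The members below 0 in all 3 preparations were MRPL17, MRPL34, MRPL53, MRPS6, MRPS16 and MRPS27. Among them the loci of MRPL53, MRPS6 and MRPS16 are merged with CCDC142, SLC5A3 and DNAJC9. The share of all loci below 0 in all 3 preparations was not counted. Across the 76 genes the ratios of 2 preparations went together loosely, with Pearson's r of 0.38 between whole-cell and nuclear, 0.35 between whole-cell and cytosolic and 0.40 between nuclear and cytosolic RNA.

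The large and small subunits had similar ratios. In whole-cell RNA the median log2 ratio was 0.16 for the large and 0.09 for the small subunit. In nuclear RNA it was 0.11 for the large and 0.12 for the small subunit, and in cytosolic RNA 0.10 for the large and 0.06 for the small subunit. All these gaps are small beside the spread among genes of a subunit, whose interquartile range was 0.21 for the large and 0.27 for the small subunit in whole-cell RNA. Names do not always match the place of the protein: MRPS30 and MRPS18A sit in the large subunit of the human mitoribosome, and MRPS36 is now assigned to the alpha-ketoglutarate dehydrogenase complex. Sorted by place, the medians in whole-cell RNA were 0.16 for 49 large and 0.10 for 26 small subunit genes. Members with a bacterial homolog, 47 genes, had a median of 0.13 in whole-cell RNA, 0.10 in nuclear RNA and 0.09 in cytosolic RNA. The 29 members without one had medians of 0.16, 0.16 and 0.07.

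In nuclear RNA the members differed by the base composition of their transcripts. The members were split into 3 bands of nearly equal size by transcript GC content. In the low band, under 46.2%, the median ratio in nuclear RNA (knockdown over control, log2) was 0.22, and 24 of 25 were above 0. The middle band had a median of 0.09, with 17 of 25 above 0. The high band, from 54.1%, had a median of -0.03, with 10 of 26 above 0. These bands replaced fixed edges that had been tried and moved after the values were seen, and the size of the contrast depended on the edge. Members at 50% or more had a median of -0.01, with 20 of 42 above 0, and those at 55% or more a median of -0.05, with 6 of 20 above 0. Pearson's r between GC content and the nuclear ratio was -0.50 across the 76 members (Spearman's rho -0.47), and all these ratios come from the same 2 libraries. In whole-cell RNA r was -0.04 and in cytosolic RNA -0.05. The other protein-coding loci, 6852 that averaged at least 5 FPKM and carry a single name, had r of -0.40 in nuclear RNA and medians of 0.14, 0.07 and -0.07 in the same bands. For every 10 points of GC content the nuclear log2 ratio was lower by a slope of -0.14 over the members and -0.13 over the other loci. The slope was thus shared with the other loci, and its cause was not tested.

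**Figure D4:**
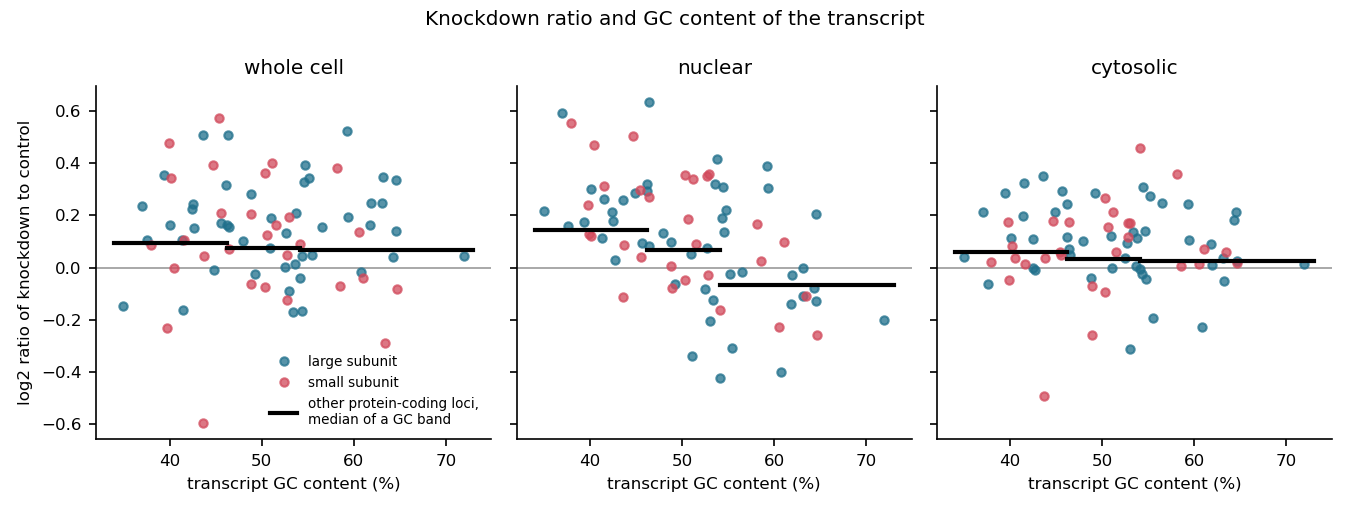
Log2 ratio of knockdown to control FPKM against the GC content of the transcript (%) for the 76 members, in whole-cell, nuclear and cytosolic RNA. Points are genes, and black lines are medians of other protein-coding loci under 46.2%, between 46.2% and 54.1% and from 54.1%; points fall with GC content in the nuclear panel, where r was -0.50 across members.

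The examples below are members with single-gene loci, picked from both ends of the nuclear ratio. Their first 90 coding bases are printed with G and C in capitals (GENCODE release 29, GRCh38, bases 1 to 90 of the coding sequence). MRPL48 and MRPL1 were the highest in nuclear RNA, at 0.63 and 0.59, and hold 44.4% and 38.2% GC over the whole coding sequence. MRPL34 and MRPL11 were among the lowest, at -0.40 and -0.34, and hold 67.7% and 56.8%. The bands rest on the GC content of the transcript, where the contrast is weaker. By that measure MRPL48 (46.4%) and MRPL11 (51.0%) both fell in the middle band. MRPL1 (37.0%) fell in the low and MRPL34 (60.8%) in the high band.
MRPL48: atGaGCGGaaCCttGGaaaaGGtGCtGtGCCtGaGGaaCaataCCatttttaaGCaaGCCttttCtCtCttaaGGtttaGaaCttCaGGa
MRPL1: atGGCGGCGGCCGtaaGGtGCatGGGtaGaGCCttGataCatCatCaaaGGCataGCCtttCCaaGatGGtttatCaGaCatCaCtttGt
MRPL34: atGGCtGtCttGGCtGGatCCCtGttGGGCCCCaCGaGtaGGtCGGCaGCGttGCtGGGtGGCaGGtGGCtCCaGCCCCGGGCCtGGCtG
MRPL11: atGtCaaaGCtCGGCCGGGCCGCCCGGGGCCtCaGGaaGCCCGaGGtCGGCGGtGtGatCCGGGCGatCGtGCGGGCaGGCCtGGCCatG
In these 90 bases MRPL48 has 38 and MRPL1 has 43 G or C, against 62 in MRPL34 and 66 in MRPL11.

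Among the large subunit genes, MRPL40 had the highest ratio in whole-cell RNA and MRPL48 in nuclear RNA. Both proteins lie in the central protuberance of the large subunit. MRPL48 had 18.7 FPKM in knockdown and 13.2 FPKM in control whole-cell RNA, 16.1 FPKM in knockdown and 10.3 FPKM in control nuclear RNA, and 36.6 FPKM in knockdown and 34.8 FPKM in control cytosolic RNA. In whole-cell RNA its log2 ratio was 0.51 ± 0.13, in nuclear RNA 0.63 ± 0.13 and in cytosolic RNA 0.07 ± 0.11 (counting error). The cytosolic values therefore overlap within counting error and the others do not. MRPL40 had 49.9 FPKM in knockdown and 34.7 FPKM in control whole-cell RNA, 51.9 FPKM in knockdown and 39.6 FPKM in control nuclear RNA, and 126 FPKM in knockdown and 106 FPKM in control cytosolic RNA. Its log2 ratios were 0.52 ± 0.06, 0.39 ± 0.06 and 0.24 ± 0.05 (counting error). MRPL40 was thus higher in knockdown libraries of all 3 preparations. Its locus overlaps the merged locus of HIRA and C22orf39, which had a mean of 72.9 FPKM.

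MRPL13, the homolog of bacterial L13, had 17.7 FPKM in knockdown and 12.4 FPKM in control whole-cell RNA, 18.7 FPKM in knockdown and 15.6 FPKM in control nuclear RNA, and 41.3 FPKM in knockdown and 32.4 FPKM in control cytosolic RNA. The knockdown library was the higher one in each preparation. MRPL1 had 5.67 FPKM in knockdown and 4.79 FPKM in control whole-cell RNA, 6.45 FPKM in knockdown and 4.25 FPKM in control nuclear RNA, and 16.4 FPKM in knockdown and 14.2 FPKM in control cytosolic RNA. Only its nuclear difference was outside counting error, and about 80.8 fragments stood behind the control nuclear value.

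At the low end of the large subunit, MRPL53, MRPL34, MRPL11 and MRPL14 had nuclear log2 ratios of -0.42, -0.40, -0.34 and -0.31. MRPL11, the homolog of bacterial L11 at the site where translation factors bind, had 16.8 FPKM in knockdown and 21.2 FPKM in control nuclear RNA, but 24.97 FPKM in knockdown and 21.9 FPKM in control whole-cell RNA. MRPL34 was lower in nuclear RNA, with 22.5 FPKM in knockdown and 29.6 FPKM in control, and in cytosolic RNA, with 92.2 FPKM in knockdown and 108 FPKM in control. In whole-cell RNA it had 29.4 FPKM in knockdown and 29.7 FPKM in control. MRPL17 had the lowest cytosolic ratio of the large subunit, -0.31 ± 0.18 (counting error), from 8.59 FPKM in knockdown and 10.7 FPKM in control. In whole-cell RNA the lowest large subunit ratio was that of MRPL20, at -0.17 ± 0.09.

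MRPL12, the homolog of the bacterial stalk protein L7/L12, also binds mitochondrial RNA polymerase. The locus, merged with SLC25A10, had 45.3 FPKM in knockdown and 41.0 FPKM in control whole-cell RNA, 38.4 FPKM in knockdown and 41.996 FPKM in control nuclear RNA, and 148 FPKM in knockdown and 145 FPKM in control cytosolic RNA. Its log2 ratios of 0.14, -0.13 and 0.02 had counting errors of 0.08, 0.07 and 0.05. MRPL36, the homolog of bacterial L36, had 21.1 FPKM in knockdown and 16.9 FPKM in control nuclear RNA. Its levels in whole-cell RNA were 21.6 FPKM in knockdown and 21.3 FPKM in control, and in cytosolic RNA 77.5 FPKM in knockdown and 77.1 FPKM in control.

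Among the small subunit genes, MRPS27 stood apart from the rest. MRPS27 is a pentatricopeptide repeat protein of the small subunit that supports mitochondrial translation. Its locus (hg19 chr5:71515235-71616473) had 41.5 FPKM in knockdown and 62.8 FPKM in control whole-cell RNA, 60.8 FPKM in knockdown and 65.8 FPKM in control nuclear RNA, and 100 FPKM in knockdown and 141 FPKM in control cytosolic RNA. Knockdown levels were thus 66.1% of control levels in whole-cell RNA, 92.4% in nuclear RNA and 71.1% in cytosolic RNA. The log2 ratios were -0.60 ± 0.05, -0.11 ± 0.04 and -0.49 ± 0.04 (counting error), and MRPS27 was the only member below 0 and outside counting error in all 3 preparations. The locus overlaps PTCD2, which had a mean of 9.36 FPKM. It was the lowest member in whole-cell and in cytosolic RNA, while MRPS26 and MRPS31 followed in whole-cell RNA at -0.29 and -0.23. MRPS31 was above 0 in the fractions, at 0.24 in nuclear and 0.18 in cytosolic RNA.

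**Figure D5:**
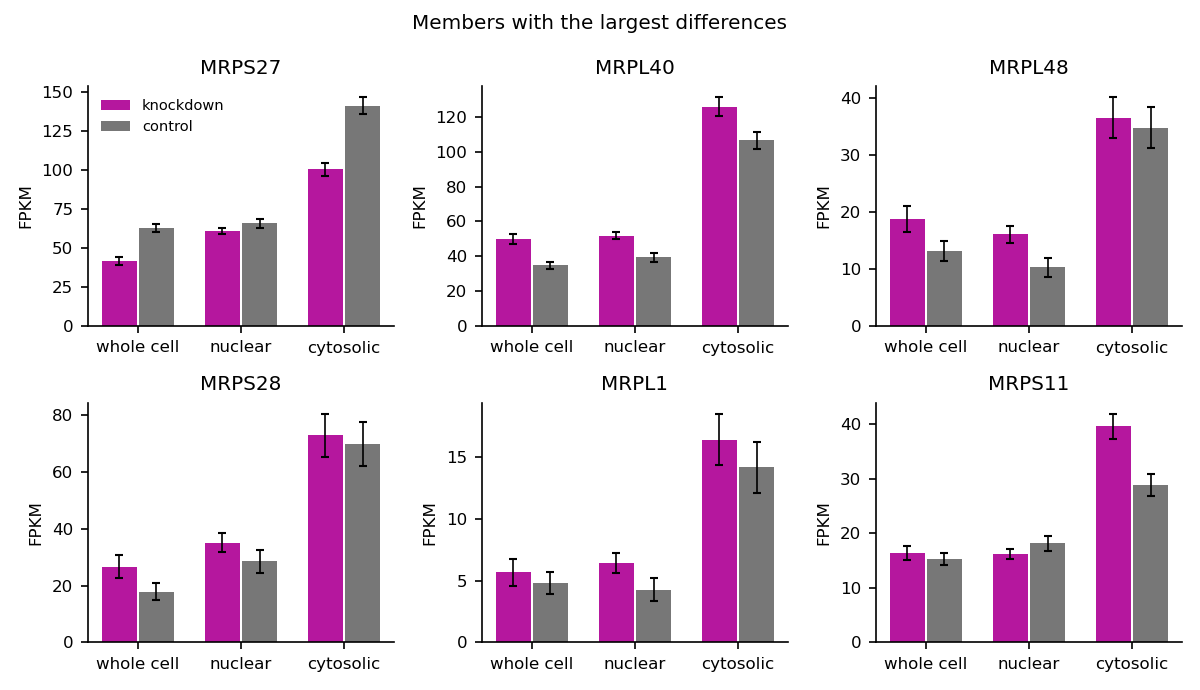
FPKM of MRPS27, MRPL40, MRPL48, MRPS28, MRPL1 and MRPS11 in knockdown and control libraries of the 3 preparations, 1 library per bar. Error bars are the 95% range of counting error alone; MRPS27 is lower after knockdown, MRPL40 is higher in each preparation, and MRPS11 differs in direction between nuclear and cytosolic RNA.

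MRPS28 had the highest whole-cell ratio of all members, 0.57 ± 0.17, but its locus is merged with TPD52. It had 26.7 FPKM in knockdown and 17.9 FPKM in control whole-cell RNA, 35.1 FPKM in knockdown and 28.6 FPKM in control nuclear RNA, and 72.9 FPKM in knockdown and 69.9 FPKM in control cytosolic RNA. MRPS25 and MRPS23, neither of which has a bacterial homolog, were higher in all 3 preparations. MRPS25 had 51.0 FPKM in knockdown and 38.6 FPKM in control whole-cell RNA, 49.1 FPKM in knockdown and 38.8 FPKM in control nuclear RNA, and 110 FPKM in knockdown and 94.8 FPKM in control cytosolic RNA. For MRPS23 the log2 ratio was 0.36 ± 0.06 in whole-cell RNA, 0.35 ± 0.05 in nuclear RNA and 0.27 ± 0.05 in cytosolic RNA (counting error). MRPS22, mutated in an inherited deficiency of oxidative phosphorylation, had log2 ratios of 0.39, 0.50 and 0.18.

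MRPS12, the homolog of bacterial S12 at the decoding site, had 26.0 FPKM in knockdown and 23.7 FPKM in control whole-cell RNA, 23.5 FPKM in knockdown and 27.5 FPKM in control nuclear RNA, and 73.3 FPKM in knockdown and 72.6 FPKM in control cytosolic RNA. Its nuclear ratio of -0.23 ± 0.08 was the second lowest of the small subunit, after MRPS34 at -0.26 ± 0.07. The paralogs MRPS18A, MRPS18B and MRPS18C share an ancestor in bacterial S18 but had different values. MRPS18A was higher in whole-cell and cytosolic RNA, at 0.38 ± 0.11 and 0.36 ± 0.09. MRPS18B was above 0 in nuclear RNA at 0.35 ± 0.06 and had 0.05 ± 0.07 in whole-cell RNA. MRPS18C, the least abundant of them with a mean of 14.6 FPKM, had a nuclear ratio of 0.47 ± 0.18 and a whole-cell ratio of -0.00 ± 0.20. MRPS30, a large subunit protein despite its name, had log2 ratios of 0.07, 0.27 and 0.17. MRPS36 had 8.72 FPKM in knockdown and 5.90 FPKM in control nuclear RNA, while its cytosolic levels were 23.8 FPKM in knockdown and 23.4 FPKM in control.

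The localization shift, the nuclear to cytosolic log2 ratio after knockdown minus that in control cells, was near 0 for most members. Its median was 0.03 over the members (quartiles -0.11 and 0.18), -0.01 over the large and 0.06 over the small subunit, and 0.00 over protein-coding loci. A shift above 0 was found for 22 of 47 large and 22 of 29 small subunit genes, and for 50.3% of protein-coding loci. With equal totals the members above 0 numbered 34 of 76, against 44 as deposited. No member shifted 1.5-fold toward the nucleus, against 7.59% of all loci, and 1 member, MRPS11, did so toward the cytosol, against 9.2% of all loci. With a linear fit on GC content taken off, no member did. Over protein-coding loci the shares past 1.5-fold were 4.28% toward the nucleus and 5.63% toward the cytosol. MRPS11, the homolog of bacterial S11 on the platform of the small subunit, had 16.2 FPKM in the nuclear and 39.7 FPKM in the cytosolic library of knockdown cells, and 18.2 FPKM in the nuclear and 28.9 FPKM in the cytosolic library of control cells. Its shift was -0.62 ± 0.09 (counting error). The next lowest were MRPL53, MRPL51 and MRPL11, at -0.42, -0.35 and -0.34. The highest shifts were those of MRPL48 at 0.56 ± 0.17, MRPS36 at 0.53 ± 0.19, MRPS18C at 0.43 ± 0.23 and MRPL1 at 0.38 ± 0.23, and MRPS27 had 0.38 ± 0.06. MRPS11 lies back to back with MRPL46 and its locus overlaps that of MRPL46 and DET1. How many reads they could share was not tested. The MRPL46 locus had 22.9 FPKM in the nuclear and 32.6 FPKM in the cytosolic library of knockdown cells, and 21.3 FPKM in the nuclear and 33.5 FPKM in the cytosolic library of control cells, a shift of 0.14. GC content ran with the shift as it did with the nuclear ratio, which rests on the same nuclear libraries: the median shift was 0.08 in the low and in the middle GC band and -0.13 in the high band, where 7 of 26 members were above 0. Other protein-coding loci had 0.09, 0.03 and -0.09 in the same bands.

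Other genes of mitochondrial translation were also close to their control levels. Of 7 mitoribosome proteins or partners without an MRPL or MRPS name, none differed 1.5-fold in any preparation. Their median log2 ratio was 0.13 in whole-cell RNA, -0.02 in nuclear RNA and 0.00 in cytosolic RNA. DAP3, a GTP-binding protein of the small subunit, had 78.0 FPKM in knockdown and 75.4 FPKM in control whole-cell RNA. PTCD3, a pentatricopeptide repeat protein of the small subunit, was the only one of the 7 with more FPKM in nuclear than in cytosolic RNA, with 43.2 FPKM in the nuclear and 24.7 FPKM in the cytosolic library of knockdown cells, and 43.0 FPKM in the nuclear and 20.9 FPKM in the cytosolic library of control cells. Of 26 assembly factors and rRNA-modifying enzymes, none differed 1.5-fold in whole-cell or nuclear RNA. In cytosolic RNA 2 were at least that much higher, against 6.41% of all loci. These were MTG1 (merged with PAOX) and MRM1, both at 0.61. The median nuclear to cytosolic ratio of the 26 genes was -0.64 in knockdown and -0.56 in control cells. It lay near that of protein-coding loci, above that of the mitoribosomal proteins they assemble. None of 15 mitochondrial translation factors differed 1.5-fold. Of all loci, between 3.86% and 6.41% did so in each direction of a preparation, so finding none in lists this short says little. TUFM, the elongation factor that brings tRNA to the mitoribosome, had 84.1 FPKM in knockdown and 72.1 FPKM in control whole-cell RNA.

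Among 5 genes of mitochondrial transcription, TEFM, the elongation factor of mitochondrial RNA polymerase, was higher in nuclear RNA with 10.5 FPKM in knockdown and 5.23 FPKM in control, and in cytosolic RNA with 10.0 FPKM in knockdown and 5.94 FPKM in control. In whole-cell RNA it had 8.97 FPKM in knockdown and 7.49 FPKM in control. Of 8 expressed factors that act on nuclear genes for mitochondria, NRF1 had 11.7 FPKM in knockdown and 5.84 FPKM in control cytosolic RNA, but 6.19 FPKM in knockdown and 6.58 FPKM in control whole-cell RNA. GABPA and YY1 differed by less than 1.5-fold in all 3 preparations. The medians of the respiratory chain subunits were 0.06 in whole-cell RNA, 0.02 in nuclear RNA and 0.05 in cytosolic RNA (log2), and those of the cytosolic ribosomal proteins 0.05, 0.04 and -0.04. The 11 loci of the mitochondrial genome that averaged at least 1 FPKM, among them those of the mRNAs that mitoribosomes translate, had a median ratio (knockdown over control, log2) of -0.01 in whole-cell RNA, 0.41 in nuclear RNA and -0.14 in cytosolic RNA. They were more abundant in nuclear than in cytosolic RNA, with median ratios of 1.71 in knockdown and 1.16 in control cells. Mitochondrial RNA thus was present in the nuclear fractions, and its part in the members' values was not tested.

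The targeted gene was lower in each knockdown library. HNRNPU, merged with HNRNPU-AS1, had 55.3 FPKM in knockdown and 129 FPKM in control whole-cell RNA, 63.7 FPKM in knockdown and 163 FPKM in control nuclear RNA, and 34.9 FPKM in knockdown and 158 FPKM in control cytosolic RNA. The nuclear RNA MALAT1 had at least 1984 FPKM in nuclear and at most 141 FPKM in cytosolic libraries. All 13 erythroid markers of K562 cells averaged at least 1 FPKM. Of markers of other cell types, KRT8, KRT18, EPCAM, CD3D, CD3E and COL1A2 also averaged at least 1 FPKM, and the B cell marker MS4A1 was listed at 0 in every library. In bulk RNA, fewer cells of a kind and less RNA per cell cannot be told apart. Depth differed between libraries. A transcript of 1 kilobase at 1 FPKM corresponded to 19.3 fragments in the knockdown and 23.7 in the control whole-cell library, 40.2 in the knockdown and 19.9 in the control nuclear library, and 15.2 in the knockdown and 13.7 in the control cytosolic library.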

How the data were processed

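RNA of K562 cells was measured in 6 libraries, 1 per group. Per the labels' protocols, TRIzol was used for extraction, rRNA was removed, and the libraries keep the strand (Illumina HiSeq X-10). The authors deposited FPKM values for 62828 loci; no header names the unit, which follows from the values and the tools named. In the submitters' processing notes stand Cuffdiff 2.2.1, TopHat2 2.0.13, FastQC and CASAVA, and the builds mm9 and hg19, without roles. The table's coordinates are of hg19. How libraries were scaled and whether counting used the strand was not given in the sources used here.

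Ratios are differences of log2(FPKM + 0.1), which understate changes at low levels. Loci averaging at least 1 FPKM were kept: 12838, of which 10289 were protein-coding by GENCODE release 29 and RefSeq names. With 1 library per group no test was run, and members were described by a 1.5-fold rule of size. Fragments were estimated from the steps between low FPKM values of single-exon loci and from mean GENCODE transcript lengths. Counting error is 1 standard error of a log2 ratio from these fragments. Counting error covers counting only and rests on estimated lengths. The calculation was tested on simulated libraries. Named members are the 4 highest and 4 lowest by level, by ratio in each preparation, by nuclear to cytosolic ratio and by shift, with 10 always named. Members named outside this rule, such as MRPS23, MRPS25 and MRPS34, were chosen after their values were seen. The bands of GC content were set after fixed edges had been tried and their values seen. The members and gene lists were chosen with earlier results of these data known. Alternatives changed the pseudocount, the minimum, the scaling, the threshold and the merged or overlapping loci. The tools were matplotlib 3.10.9, scipy 1.17.1, pandas 2.3.3 and numpy 2.4.6 under Python 3.11.15.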

Additional observations from a re-analysis of the deposited data

Results flagged for a closer look

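Of the 76 members, 2 had ratios of knockdown to control that went opposite ways in 2 preparations, each outside the 95% range of counting error and at least 1.1-fold from control. With 1 library per group, whether the preparations differ was not tested.

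MRPL22, the homolog of bacterial L22 that lines the peptide exit tunnel, had log2 ratios of -0.16 in whole-cell RNA, 0.26 in nuclear RNA and 0.33 in cytosolic RNA. Its levels were 21.1 FPKM in knockdown and 23.7 FPKM in control whole-cell RNA, 28.6 FPKM in knockdown and 23.8 FPKM in control nuclear RNA, and 72.4 FPKM in knockdown and 57.7 FPKM in control cytosolic RNA.

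MRPS11 had log2 ratios of -0.16 in nuclear RNA and 0.46 in cytosolic RNA. In whole-cell RNA it had 16.4 FPKM in knockdown and 15.4 FPKM in control.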

How the results depend on the processing

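Of 242 alternative values over 22 results, 211 stayed within a 95% interval, or within 1.5 times the count, and 31 moved. The interval was the binomial one of the median over members. For large minus small differences it combined the widths of both subunits' intervals. All 76 members passed every minimum tried, so values under a changed minimum could not differ from the main ones. They count among the 211 without being a check. The same holds for large minus small differences when a library is multiplied by 1 factor, which can hardly change them. It also holds for counts of 0 under a stricter threshold, which cannot rise. The interval treats genes measured in the same libraries as separate draws, so it does not cover differences between repeated libraries. Of the 211, 4 lay on the other side of 0. The median shift was -0.01 with equal totals. The large minus small difference in the nuclear knockdown to control ratio was 0.0036 without merged loci and 0.04 with subunits by place in the mitoribosome, and that in the nuclear to cytosolic ratio of knockdown cells was 0.10 without overlapping members. No paired analysis was possible because the results come from no test: the preparations hold different RNA and are not known to be separate cultures. With 1 library per group no replicate could be left out. Scaling to the protein-coding median gave medians of 0.064 for knockdown over control in whole-cell RNA, and -0.81 in knockdown and -0.83 in control cells for nuclear over cytosolic RNA. Equal totals gave 0.072, -0.14 and -0.12, with 65.8 of 100 members below 0 in knockdown and 63.2 in control cells. Quantile normalization gave 0.063, -0.58 and -0.56, a cytosolic knockdown to control median of 0.036, and 2 members shifted toward the nucleus. The count of members at least 1.5-fold higher in nuclear RNA was 1 with a pseudocount of 1, with the median or equal-total scaling, and with a linear fit on GC content taken off. With a pseudocount of 1, 0 members were 1.5-fold lower in whole-cell RNA. With a ratio of 5 to 4 as the threshold, 16 members were higher in whole-cell RNA, 11 higher and 3 lower in nuclear RNA, 4 higher and 1 lower in cytosolic RNA, and 6 shifted toward the nucleus and 4 toward the cytosol; at 2-fold each count was 0. Without members that overlap another locus, 0 were lower in whole-cell RNA, since MRPS27 overlaps PTCD2, and 0 shifted toward the cytosol, since MRPS11 overlaps MRPL46. With the GC fit taken off, 0 shifted toward the cytosol. The alternatives on overlap and on GC were chosen after seeing the data. Depth and transcript length limit precision: the counting error of the whole-cell ratio was 0.20 for MRPL1 and MRPL17, 0.11 for MRPL50 and 0.19 for MRPL54.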
